A study of Danio rerio with 6 samples.

Results

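The proteasome genes of whole zebrafish (Danio rerio) embryos were examined at 4 days post fertilization. They were the genes whose symbol in the deposited tables begins with psma, psmb, psmc, psmd, psme, psmf or psmg in either case, with a value of at least 1 in 3 or more libraries. Of 57 such rows among 31452 genes, 55 met this rule, 3 of them with an upper-case symbol. RNA was sequenced from 6 libraries, each a pool of 10 embryos: 3 libraries were of embryos given a control morpholino, and the other 3 of embryos given one against splicing of glut12 (morphants). Morpholinos are synthetic antisense molecules that bind RNA, and glut12, listed as slc2a12, encodes a sugar transporter. All embryos of both groups were thus injected, and neither the strain nor the clutches behind the pools are given in the labels, so p-values reflect only how these pools vary, in part perhaps for technical reasons. In RNA from whole embryos, fewer cells of a type and less RNA per cell cannot be told apart.

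The proteasome is the large protease that degrades proteins tagged with ubiquitin. Its barrel-shaped core particle is built from an outer pair of alpha rings, which gate the entrance, and an inner pair of beta rings, some of whose subunits carry the proteolytic sites. A cap on the core binds ubiquitin chains, removes them, and unfolds and feeds in the substrate with a ring of ATPases. Other caps (the activators), an inhibitor and dedicated assembly chaperones act on the same core. All cells need the standard subunits, whereas in jawed vertebrates inducible beta subunits replace standard ones in immune cells and after interferon. By role, the 55 genes comprised 9 alpha-ring genes, 7 standard beta-ring genes, 5 genes of inducible or related beta subunits, 7 ATPases of the cap, 13 other cap subunits, 6 activators or inhibitors and 7 assembly chaperones. The last gene, psmc3ip, meets the rule by its symbol alone. Its product takes part in meiotic recombination and is not a proteasome subunit. The cap subunit gene psmd7 was not analysed here.

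Value totals were 11762915, 11449397 and 11065259 across controls and 10744090, 10397713 and 10543839 across morphants. Every morphant total was thus below every control total. Estimated depths ran from 7550000 reads in control 1 to 15170000 reads in morphant 1. The targeted gene slc2a12 was at 160, 145 and 143 across controls and at 98, 97 and 90 across morphants, lower in each morphant than in each control (log2 fold change -0.65 ± 0.13, SE, limma adjusted p = 0.158). All 20 rows of a list of markers of muscle, neurons, lens, liver, heart, skin, blood and gut had reads, as a whole embryo would give. Control 1 stood apart in some of them: the neuronal gene elavl3 was at 737 there, at 1897 and 2106 in controls 2 and 3, and at 2310, 2531 and 2416 in the morphants. The neuronal gene elavl4 was also lowest in control 1, at 1089, with controls 2 and 3 at 1609 and 1644 and the morphants at 1866, 1913 and 1771. Another neuronal gene, snap25a, was instead highest in control 1, at 4042, with controls 2 and 3 at 3385 and 3679 and the morphants at 3031, 3354 and 3461. Values are normalised read counts and are not divided by transcript length, so levels of different genes are not compared.

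The comparison of glut12 morphants with controls asked whether transcripts of the core and of the cap differed between the groups. None of the 55 proteasome genes passed an adjusted p of 0.05 (limma with Benjamini-Hochberg over 26082 genes), where 0.023% of all genes passed in either direction and 0.0% passed as lower. Adjusted limma p-values of the members ran from 0.231 to 1.0, and 0 members were called by voom on estimated reads. At an unadjusted p of 0.05, 3 members were lower and 0 higher in limma, a share of 5.45% lower beside 6.93% of all genes, which is near the background (8.99% of all genes were higher at that p). The count of lower members was 10 (18.2%) when control 3 was left out, 9 (16.4%) for morphant 1, 1 for morphant 2 and 0 for morphant 3. In the same fits 7.05%, 6.52%, 4.31% and 4.7% of all genes were lower at that p. In the fit that left out control 3, 1 member was higher. With equal library totals 1 member was lower and 1 higher, as the split of all genes moved from 1808 lower and 2346 higher to 795 lower and 3793 higher.

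The estimates were small and mostly of one sign. Of the 55 members, 51 had a negative log2 fold change (morphant minus control, on log2(value + 1)), with a median of -0.14, against 50.1% of all genes and a median of 0.00. The deposited values had already been divided by a size factor for each library, which largely sets the middle of all genes near 0. All 16 standard core genes and 19 of 20 cap genes were negative (12 of 16 and 12 of 20 with equal library totals), with medians of -0.16 and -0.13. Without control 1 these medians were -0.09 and -0.07, and 42 of 55 members were negative. With the libraries scaled to equal totals the median of all genes moved to 0.11, the core and cap medians were -0.04 and -0.02, and 37 of 55 members were negative. Relative to all genes the core then lay at -0.15 and the cap at -0.13. Scaling a library moves all its genes by nearly the same log2 amount, so these offsets could hardly change. The 95% limma intervals of 52 members included 0. Those of all 16 core and all 20 cap genes stayed within a log2 change of -0.82 to 0.27 and of -0.50 to 0.28, so that none of them reached -1. The groups did not overlap for 6 members that were lower in the morphants (psma6b, psmb1, psmc6, psmd1, psmg3 and psmd5), 10.9% of the members beside 10.2% of all genes. They did not overlap for 1 member that was higher, psme4b, where 11.6% of all genes were higher in this way.

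**Figure D1:**
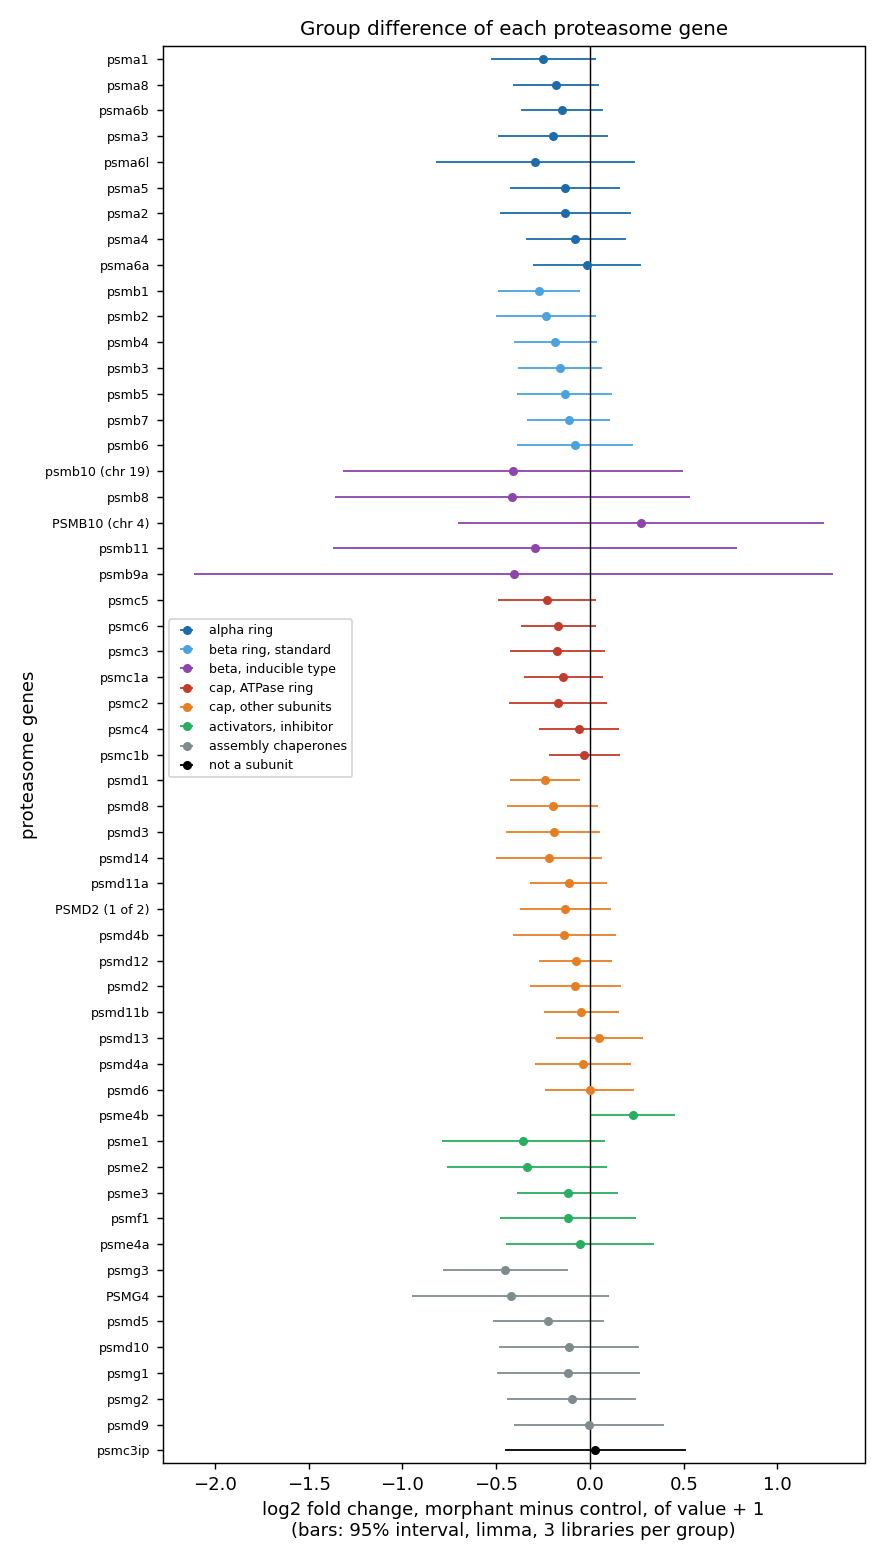
Log2 fold change of each proteasome gene, morphant minus control, on log2(value + 1) (horizontal axis), with its 95% limma interval from 3 libraries per group, coloured by role. Of 55 points 51 lie left of 0, 52 intervals include 0, and those of the inducible type are the widest, from -2.11 to 1.29.

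Most members varied together between libraries, and the order of the libraries followed the groups only in part. Control 1 held the highest value for 43 of 55 members, among them 15 of 16 core genes and 15 of 20 cap genes, whereas 26.8% of all genes were highest there. Of the 26082 genes tested, control 1 held the highest value for 7001 and the lowest for 7085, the most of any library in both. It held the lowest value for 1 member. Relative to the mean of the controls, the median core gene lay at 0.17 in control 1, -0.02 in control 2 and -0.14 in control 3 on the log2 scale, and at -0.06, -0.20 and -0.24 in morphants 1, 2 and 3. For the median cap gene the values were 0.12, -0.01 and -0.11 for the controls and -0.02, -0.19 and -0.17 for the morphants. Morphant 1 thus lay above control 3 in both and close to control 2, and the groups overlapped for both the core and the cap. The median of all genes stayed between 0.00 and 0.02 in all 6 libraries, which the size factors already applied to the values largely set. The lowest value of a member was in morphant 3 for 24 genes, in morphant 2 for 13 and in control 3 for 12.

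**Figure D2:**
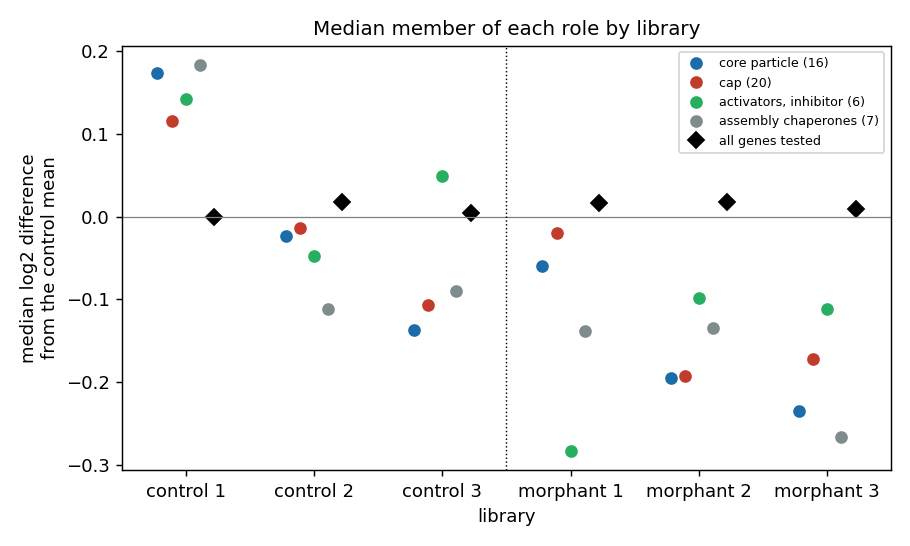
Median log2 difference from the control mean (vertical axis) in each of the 6 libraries for the core particle, the cap, the activators with the inhibitor, the assembly chaperones and all genes tested. Core and cap stand at 0.17 and 0.12 in control 1, and morphant 1, at -0.06 and -0.02, lies above control 3, at -0.14 and -0.11.

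**Figure D3:**
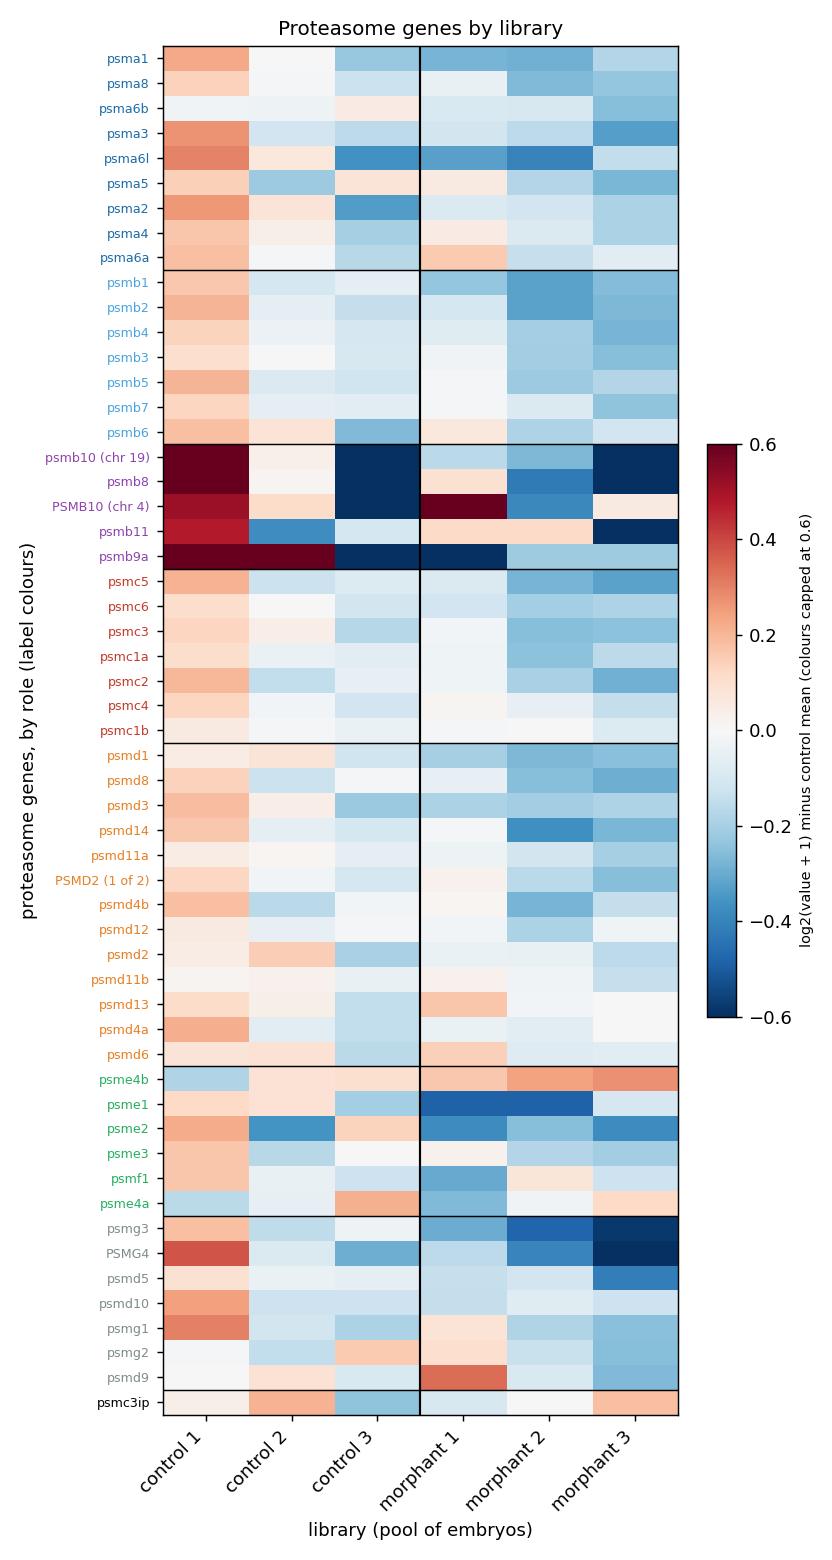
Heat map of log2(value + 1) minus the mean of the controls for the 55 proteasome genes (rows, ordered and coloured by role) in the 6 libraries (columns), with the colour scale capped at 0.6 in either direction. The column of control 1 is highest in 43 of 55 rows, and psme4b is lowest there.

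Of the alpha-ring genes, whose products form the gate of the core, 9 of 9 had negative estimates between -0.29 (psma6l) and -0.02 (psma6a), and 7 of 9 with equal library totals. The gene with the lowest p was psma1, at 774, 663 and 565 across controls and at 546, 541 and 586 across morphants. Morphant 3 lay above control 3, so the groups overlapped, and the log2 fold change was -0.25 ± 0.12 (SE, limma adjusted p = 0.354). The gene psma8, to which RefSeq gives psma7 as a synonym, was at 1256, 1135 and 1043 across controls and at 1105, 949 and 973 across morphants (-0.18 ± 0.10, limma adjusted p = 0.408). Its highest morphant lay above its lowest control. For psma6b the controls were at 361, 358 and 379 and the morphants at 343, 342 and 306, with no overlap (-0.15 ± 0.10, limma adjusted p = 0.467). Its copy psma6a was at 422, 369 and 332 against 415, 338 and 357, and the groups overlapped over most of their range. The gene si:rp71-45k5.4, which RefSeq names psma2b and the symbol rule leaves out, was looked at after the values were seen. It was at 520, 427 and 449 across controls and at 487, 439 and 400 across morphants (-0.07 ± 0.12, limma adjusted p = 0.785).

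The standard beta ring holds the proteolytic sites. Its chymotrypsin-like subunit gene psmb5 was at 1222, 997 and 976 across controls and at 1053, 910 and 938 across morphants. Morphant 1 exceeded controls 2 and 3, and the log2 fold change was -0.13 ± 0.11 (SE, 95% interval -0.39 to 0.12, limma adjusted p = 0.576). Without control 1 it was -0.03, and with equal library totals -0.02. The trypsin-like subunit gene psmb7 was at 1053, 923 and 918 against 955, 907 and 815 (-0.11, interval -0.33 to 0.11, limma adjusted p = 0.594), and with equal library totals its estimate was 0.00. The caspase-like subunit gene psmb6 was at 514, 480 and 377 against 474, 398 and 418 (-0.08, interval -0.39 to 0.23, limma adjusted p = 0.802), and its sign turned with equal library totals (0.03) and without control 1 (0.01). For all 3 proteolytic subunits the groups overlapped.

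Among the other beta-ring genes, whose products have no proteolytic site, psmb1 had the lowest p and was 1 of the 3 members past an unadjusted p of 0.05. It was at 897, 744 and 772 across controls and at 683, 641 and 670 across morphants, with every morphant below every control. Its log2 fold change was -0.27 ± 0.10 (SE, limma adjusted p = 0.254). For psmb2 the values were 556, 463 and 437 against 448, 386 and 400 (-0.23 ± 0.12, limma adjusted p = 0.365), and for psmb4 they were 988, 877 and 839 against 855, 781 and 740 (-0.19 ± 0.10, limma adjusted p = 0.383). In both, morphant 1 exceeded control 3. The remaining gene, psmb3, had an estimate of -0.16, and all 7 standard beta genes were highest in control 1.

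The inducible-type beta genes had the widest 95% intervals of the roles. In mammals the products of Psmb8, Psmb9 and Psmb10 take the places of the standard proteolytic subunits in the immunoproteasome. The zebrafish gene psmb8, which RefSeq names psmb8a, was at 28, 18 and 11 across controls and at 19, 13 and 9 across morphants. The gene psmb9a was at 6, 5 and 0 against 1, 2 and 2. The gene listed as PSMB10 on chromosome 4, the psmb10 of RefSeq, was at 72, 54 and 32 against 112, 38 and 52, with the highest of all 6 values in morphant 1. Without morphant 1 its estimate changed sign, from 0.27 to -0.17, and without control 3 it was -0.04. A pair of rows carry older symbols: psmb10 on chromosome 19, now psmb13a, was at 23, 15 and 9 against 13, 12 and 8, and psmb11, now psmb12, at 8, 4 and 5 against 6, 6 and 2.

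The groups overlapped for all 5 of these genes, and adjusted limma p-values ran from 0.64 to 0.819. The 95% intervals were wide: that of psmb8 ran from -1.36 to 0.54 and that of psmb9a from -2.11 to 1.29. Only the interval of PSMB10 stayed above -1, and it ran from -0.70 to 1.25, so it included a rise of 1. For the other 4 a change of -1 lay within the interval. The genes psmb8, psmb9a, psmb10 and psmb11 are neighbours on chromosome 19, and psmb8a overlaps psmb13a in the RefSeq table (assembly GRCz12tu), so reads may be split between them. Together the 5 inducible-type genes made up 4.68%, 3.85% and 2.45% of the summed values of these genes and psmb5, psmb6 and psmb7 across controls and at 5.74%, 3.11% and 3.25% across morphants, which overlap. The 2 rows that missed the value rule also belong here: PSMB11 (1 of 2) was at 2 in control 1, 1 in morphant 3 and 0 elsewhere, and PSMB11 (2 of 2) at 0 in all 6 libraries. Psmb11 of mammals is the beta subunit of thymic epithelium.

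Markers of cells in which inducible subunits are known to be high are given beside these values. Of 13 macrophage and neutrophil markers tested, 0 passed adjustment over all genes. At an unadjusted limma p of 0.05, 1 was higher and 1 lower, where 8.99% of all genes were higher and 6.93% lower. The higher was the neutrophil peroxidase gene mpx, at 229, 231 and 272 against 411, 267 and 340, with overlap. The lower was the actin-binding protein gene coro1a, at 159, 164 and 152 against 126, 114 and 119. Without overlap, 1 marker was higher (csf1ra) and 1 lower (coro1a), beside 11.6% and 10.2% of all genes. The summed values of the 13 markers lay between 1286 and 1400 in the controls and between 1235 and 1741 in the morphants. Of 7 T cell and thymus markers found, 1 was at 0 in all libraries and 0 passed, with sums of 217 to 238 and 162 to 231. The 15 rows found of the antigen-processing list, whose products prepare and present peptides on class I molecules, had a median of 0.08 with 0 past adjustment. The lowest p of these belonged to a row on chromosome 3 named mhc1zaa, a class I gene. It was at 12, 8 and 12 against 17, 24 and 21 (limma adjusted p = 0.239). Other rows of that symbol overlapped between groups. Their log2 fold changes were 0.69 (chromosome 3) and 0.06 (chromosome 1), with limma adjusted p = 0.467 and 0.856. The part of these cells in the values of the inducible genes was not tested.

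The ATPase ring at the base of the cap unfolds substrates. All 7 of its genes had negative estimates, from -0.23 to -0.03 (5 of 7 with equal library totals), and all 7 were highest in control 1. The gene psmc5 was at 1086, 860 and 889 across controls and at 885, 775 and 752 across morphants (-0.23 ± 0.11, SE, limma adjusted p = 0.362), with morphant 1 above control 2. For psmc6 the controls were at 974, 905 and 838 and the morphants at 836, 784 and 795, a separation of only 2 between control 3 and morphant 1 (-0.17 ± 0.09, limma adjusted p = 0.378). For psmc3 the values were 1030, 968 and 834 against 930, 788 and 792 (-0.17 ± 0.11, limma adjusted p = 0.466). The smallest estimate belonged to psmc1b, at 519, 496 and 487 against 498, 500 and 473, with a 95% interval from -0.22 to 0.16.

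Among the other cap subunits, which form its scaffold, ubiquitin receptors and lid, estimates ran from -0.24 (psmd1) to 0.05 (psmd13). The scaffold subunit gene psmd1, also past an unadjusted p of 0.05, was at 1790, 1831 and 1600 across controls and at 1515, 1439 and 1458 across morphants, with no overlap. Its log2 fold change was -0.24 ± 0.08 (SE, limma adjusted p = 0.243), and with library weights its adjusted limma p of 0.0986 was the lowest of any member under any setting (range for psmd1 over the alternatives 0.0986 to 0.569). The deubiquitinase subunit gene psmd14, whose product cuts off the ubiquitin chain, was at 567, 487 and 470 against 502, 392 and 419 (-0.22 ± 0.12, limma adjusted p = 0.414). For the lid subunit gene psmd8 the values were 821, 681 and 739 against 720, 624 and 608 (-0.20 ± 0.11, limma adjusted p = 0.391). For the lid subunit gene psmd3 they were 1215, 1097 and 915 against 936, 925 and 940 (-0.19 ± 0.11, limma adjusted p = 0.412). In these 3 genes the lowest control lay below the highest morphant. The lid gene psmd6 had the same mean in both groups within its spread, 996 ± 93.9 for controls and 995 ± 88.9 for morphants (SD over 3 libraries each).

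Several cap genes exist as copies. The a copy made up 63.6% ± 0.73 of the summed psmc1a and psmc1b values for controls and 61.8% ± 1.93 for morphants (SD over 3 libraries each), and 49.1% ± 2.04 and 50.8% ± 2.36 for the ubiquitin receptor genes psmd4a and psmd4b. Both pairs overlapped between groups. For the lid subunit genes psmd11a and psmd11b the share was 48.0%, 47.3% and 47.4% across controls and at 46.6%, 46.0% and 46.4% across morphants, which do not overlap but differ by about 1 percentage point. The rows psmd2 and PSMD2 (1 of 2), both on chromosome 15, had shares of 52.2% ± 2.45 and 53.1% ± 1.79. RefSeq lists a single psmd2 gene there, so reads may be split between these rows.

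The proportion of core to cap overlapped between the groups. The summed values of the 16 core genes were 0.68, 0.64 and 0.65 times those of the 20 cap genes in controls 1, 2 and 3 and 0.65, 0.64 and 0.63 times in morphants 1, 2 and 3, which overlap. The sums themselves were 10470 ± 1096 for the core of controls and 9341 ± 617 for that of morphants (SD over 3 libraries each), and 15980 ± 1231 and 14570 ± 835 for the cap. Control 1 held the highest sums, 11701 and 17279, and the groups overlapped for both. Scaled to equal library totals of 1e6, the core summed to 915 ± 69.3 for controls and 884 ± 46.5 for morphants, and the cap 1397 ± 65.8 and 1379 ± 58.8. On that scale the difference between group means was smaller than either SD. Equal library totals also moved the median log2 fold change of all genes to 0.11.

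Activators open the core without the cap. The gene psme4b, one of a pair of genes for the large nuclear activator PA200, was 1 of 4 members with a positive estimate, beside PSMB10, psmd13 and psmc3ip. It was at 639, 770 and 775 across controls and at 812, 858 and 878 across morphants, with every morphant above every control. The log2 fold change was 0.23 ± 0.10 (SE, limma adjusted p = 0.315). With equal library totals it was 0.34 and without control 1 it was 0.14, and over the alternatives its adjusted limma p ran from 0.175 to 0.6. Over the 6 libraries its log2 values had a Pearson r of -0.95 with the mean log2 value of the core genes, given as a description. Its copy psme4a was at 87, 94 and 113 against 81, 96 and 106, and it made up 12.0%, 10.9% and 12.7% of the pair across controls and at 9.07%, 10.1% and 10.8% across morphants. The share was lower in all 3 morphants, though control 2 and morphant 3 lay close together.

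The interferon-inducible activator genes psme1 and psme2, whose products form the mixed ring known as PA28, had the most negative estimates of this role. For psme1 the values were 84, 82 and 67 across controls and at 55, 55 and 72 across morphants (-0.36 ± 0.19, SE, limma adjusted p = 0.392), with morphant 3 above control 3. For psme2 they were 120, 80 and 113 against 79, 86 and 79 (-0.33 ± 0.19, limma adjusted p = 0.408), with morphant 2 above control 2. The nuclear activator gene psme3 and the inhibitor gene psmf1 both had estimates of -0.12 (limma adjusted p = 0.65 and 0.748).

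Assembly chaperones guide the building of the core (psmg1 to psmg4) and of the cap's base (psmd5, psmd9 and psmd10), and all 7 had negative estimates (5 of 7 with equal library totals). The chaperone gene psmg3 had the lowest p of all members and was the last of the 3 past an unadjusted p of 0.05. It was at 182, 144 and 157 across controls and at 130, 115 and 107 across morphants, with every morphant below every control. The log2 fold change was -0.45 ± 0.15 (SE, 95% interval -0.78 to -0.12, limma adjusted p = 0.231). Its partner gene, listed as PSMG4, was at 112, 81 and 70 against 77, 65 and 52 (-0.42 ± 0.23, limma adjusted p = 0.401), with morphant 1 above control 3. The base chaperone gene psmd5 was at 195, 178 and 176 against 166, 169 and 137, without overlap (-0.22 ± 0.13, limma adjusted p = 0.429). The other 4 chaperone genes lay between -0.12 and -0.01. The gene psmc3ip, which is no subunit, had an estimate of 0.03 and did not follow the core over the libraries (Pearson r of 0.07).

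**Figure D4:**
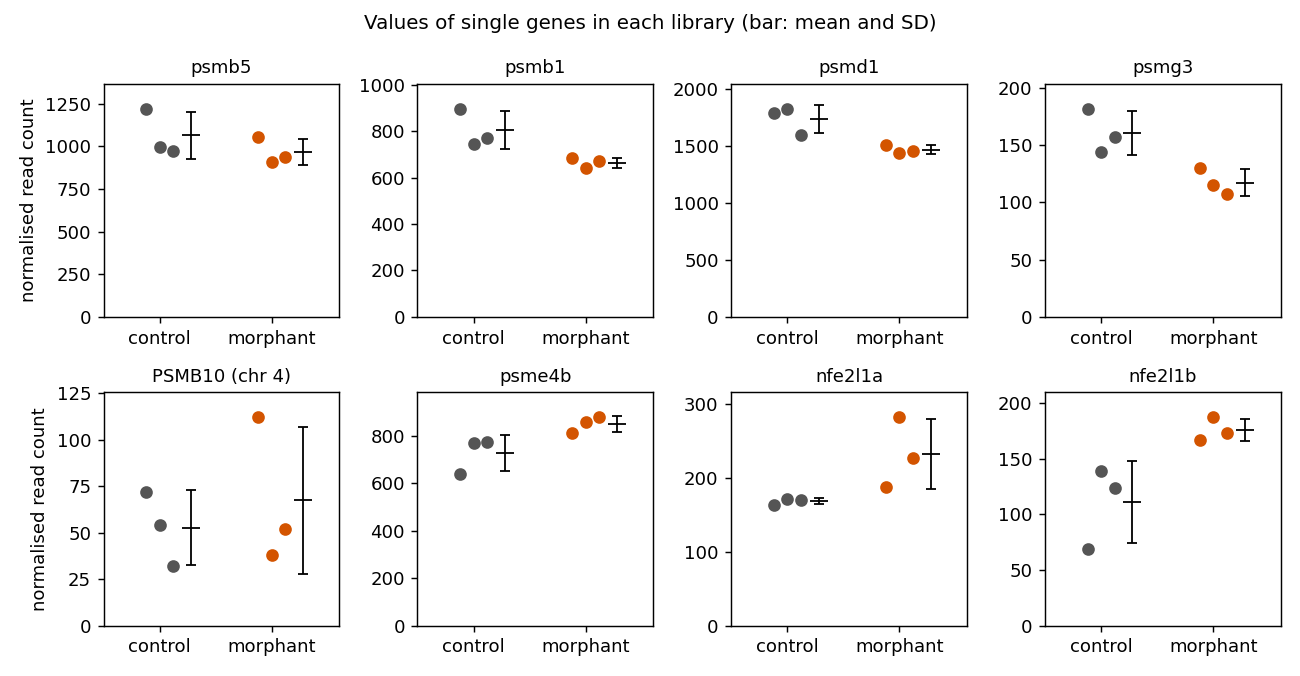
Normalised read counts (vertical axes, from 0) of 6 proteasome genes and of nfe2l1a and nfe2l1b in each library (points), with the mean and SD of 3 libraries beside them. In psmb1, psmd1 and psmg3 every morphant lies below every control, and in psme4b, nfe2l1a and nfe2l1b every morphant lies above, while psmb5 and PSMB10 overlap.

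Genes around the proteasome were taken from lists of its other partners. None of the genes in 5 such lists passed an adjusted limma p of 0.05. In human and mouse cells NFE2L1, anchored in the endoplasmic reticulum, is processed into a transcription factor for proteasome genes when proteasome activity is short. Both zebrafish copies had higher values in each morphant than in each control, as did 11.6% of all genes. The genes stat3 and FOXO4 of the same list were also higher in this way, and 1 row, keap1b, was lower without overlap. The copy nfe2l1b was at 69, 139 and 124 across controls and at 167, 187 and 173 across morphants (log2 fold change 0.72 ± 0.25, SE, limma adjusted p = 0.244). The copy nfe2l1a was at 164, 172 and 170 against 188, 282 and 227 (0.44 ± 0.16, limma adjusted p = 0.253). Control 1, the library in which most subunit genes were highest, was low in nfe2l1b and also in stat3 and FOXO4. Of the 13 regulator rows found, 8 were negative, with a median of -0.06, and at an unadjusted limma p of 0.05 4 were higher and 1 lower, where 8.99% of all genes were higher and 6.93% lower.

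Ubiquitin itself, its activating and conjugating enzymes, and the factors that carry substrates to the cap had mostly negative estimates in the reported fit. With equal library totals, where the median of all genes moved to 0.11, the estimates of these lists were not examined. The 5 rows of ubiquitin and ubiquitin-fusion genes had a median of -0.21, with 3 negative. The polyubiquitin gene ubc was at 10587, 9711 and 9094 across controls and at 7995, 7640 and 7728 across morphants, without overlap (-0.33 ± 0.09, SE, limma adjusted p = 0.197). The gene rps27a, which encodes ubiquitin fused to a ribosomal protein, was at 8934, 7579 and 7003 against 7062, 5770 and 5974 (-0.32 ± 0.12, limma adjusted p = 0.267). In rps27a morphant 1 lay above control 3. Of 19 activating and conjugating enzyme genes, 15 were negative with a median of -0.15, and 2 were lower and 1 higher at an unadjusted limma p of 0.05 (6.93% and 8.99% of all genes). They included the conjugating enzyme gene ube2na at 1694, 1580 and 1558 against 1403, 1348 and 1244 (-0.28 ± 0.08, limma adjusted p = 0.214) and ube2g2 at 307, 272 and 302 against 232, 235 and 251 (-0.29 ± 0.10, limma adjusted p = 0.251). Both had no overlap between groups. Of the 19 genes, 3 were lower and 1 higher (UBA6) in this way, beside 10.2% and 11.6% of all genes.

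Of 12 rows for the segregase that pulls tagged proteins from complexes and for shuttle factors, 10 were negative with a median of -0.11, and 2 were lower and 1 higher at an unadjusted limma p of 0.05 (6.93% and 8.99% of all genes). The shuttle gene ubqln4 was at 1784, 1574 and 1567 against 1510, 1373 and 1287 (-0.24 ± 0.09, SE, limma adjusted p = 0.28), and ubxn1, a cofactor of the segregase, at 189, 146 and 145 against 147, 104 and 100 (-0.46 ± 0.19, limma adjusted p = 0.297). Of 8 further cap subunits and cofactors, 7 were negative with a median of -0.09. The cap-bound deubiquitinase gene uchl5 was at 262, 208 and 243 against 205, 187 and 182 (-0.31 ± 0.12, limma adjusted p = 0.293). The core maturation factor gene pomp was at 457, 396 and 430 against 428, 321 and 333 (-0.26 ± 0.13, limma adjusted p = 0.369). In uchl5 the groups did not overlap, and in pomp morphant 1 lay above control 2. Over all genes tested, 50.1% were negative.

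Most core and cap genes were alike in how they varied over the libraries, while some other members were not. The Pearson r over the 6 libraries was taken between a gene's log2 values and the mean of the 16 core genes. Its median was 0.86 for the 20 cap genes, with 13 of 20 over 0.8. For the 15942 genes with a mean of at least 50 it was 0.12, with 13.3% over 0.8. For all 55 members it was 0.84, with 32 over 0.8 and a range from -0.95 (psme4b) to 0.98. The core gene psma6b stood at 0.47. These correlations are descriptions of 6 libraries that share the depth and group of each library, and core genes, with a median of 0.88, enter their own mean. The 5 genes outside the members most like the core were hibadhb, which encodes an enzyme of valine breakdown (r = 0.998), ran, which encodes the nuclear transport GTPase (r = 0.998), a gene on chromosome 24 without a symbol, ENSDARG00000087348 (r = 0.996), the splicing factor gene prpf31 (r = 0.996) and fam151b (r = 0.996). The gene ran was at 4222, 3686 and 3406 across controls and at 3528, 3239 and 3237 across morphants, with control 1 highest and morphant 1 above control 3, as in the core. The within-group SD of log2 values had a median of 0.15 for core genes and 0.13 for cap genes, beside 0.17 for all genes of that mean. For core and cap genes together it was 0.10 without control 1. The SD of all genes without control 1 was not examined, nor that of core and cap together with it, so these values are not compared.

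**Figure D5:**
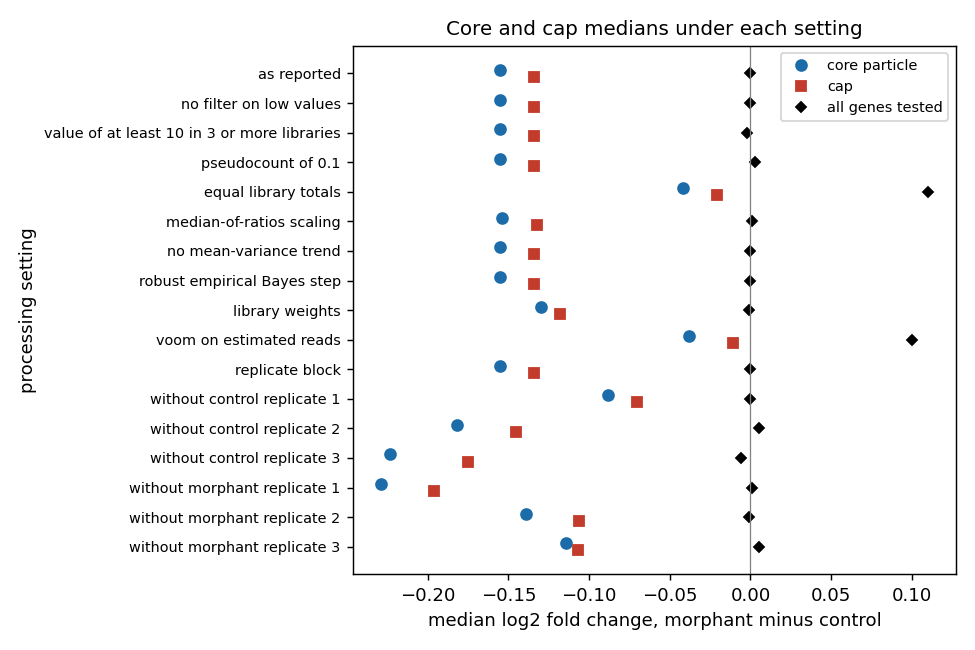
Median log2 fold change, morphant minus control (horizontal axis), of the 16 core genes, the 20 cap genes and all genes tested, for the reported fit and each alternative. With all 6 libraries as reported the core and cap stand at -0.16 and -0.13, without control 1 at -0.09 and -0.07, and with equal library totals at -0.04 and -0.02 while all genes stand at 0.11.

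The other members, not given library by library, filled the same range. Among the alpha-ring genes psma3 stood at -0.20 and psma5 and psma2 at -0.13 and psma4 at -0.08, and among the ATPases psmc2 at -0.17, psmc1a at -0.14 and psmc4 at -0.06. Among the lid and base genes PSMD2 (1 of 2), psmd4b and psmd11a stood at -0.13, -0.14 and -0.11, and psmd12, psmd2, psmd11b and psmd4a between -0.08 and -0.04 (limma, all with adjusted p over 0.4). Of the 20 rows of tissue markers 17 were negative, with a median of -0.28. Without overlap, 7 were lower and 3 higher (elavl3, elavl4 and nppa), beside 10.2% and 11.6% of all genes. Their summed values were 406531 to 488953 in the controls and 323056 to 382760 in the morphants. The muscle gene actc1b weighs heavily in these sums, with means of 166200 and 109800. With equal library totals the estimates of these rows were not examined. The lens gene crybb1 was at 13510, 11896 and 10373 against 7587, 8674 and 8792. The part of tissue composition in the proteasome values was not tested.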

How the data were processed

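Tables of RNA-seq values for 6 libraries were used, with 1 row per Ensembl gene. Each deposited value is a score, a read count of a gene that the authors had divided by a library size factor and rounded to a whole number. This was read from the values (some low whole numbers are unused or doubly used) and from a footer that names size factors and lists none. Zv9 was the genome build, per the submitters' processing notes. How reads were aligned and counted is not given in the sources used here, nor is strandedness. Reads per library were estimated from the step that best fitted the use of the numbers up to 200.

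The 26082 genes at 1 or more in 3 or more libraries were compared as log2(value + 1) by limma 3.58.1 (R 4.3.3), two-sided, fitting group alone with a mean-variance trend, and Benjamini-Hochberg adjustment ran over all of them. The fit was tested on simulated data in which genes varied independently and the set changes exceeded the core and cap medians here. That test therefore does not bear on small changes in genes that vary together. The members, roles and lists were chosen with earlier results of these data known. Values by library are given for up to 3 members per role with the lowest p, the proteolytic and inducible beta genes and psmd14. They are also given for nfe2l1a and nfe2l1b and for up to 2 genes per other list with the lowest p. No gene of the T cell and tissue marker lists was given by that p rule. The 5 genes most like the core are named with their r, and ran also with its values. Other genes with values by library (elavl3, elavl4, snap25a, psma6a, psmc1b, psme4a, crybb1, si:rp71-45k5.4) were chosen after their values were seen. Alternatives were no filter or a stricter one, a pseudocount of 0.1, other scalings, other limma settings, voom on estimated reads, a block by replicate number and leaving out single libraries.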

Additional observations from a re-analysis of the deposited data

How the results depend on the processing

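Under all 16 alternatives 0 of the members passed an adjusted limma p of 0.05, where 3 were past an unadjusted p as reported. That count was 1, lower, without the mean-variance trend, where 5.51% of all genes were lower and 7.44% higher. It was 7 with library weights, 6 lower and 1 higher, beside 8.58% and 11.2% of all genes. With voom on estimated reads it was 1, higher, where 3.2% of all genes were lower and 14.6% higher. It lay between 0 and 11 with 1 library left out, where 4.31% to 7.05% of all genes were lower and 4.56% to 10.8% higher. All genes past an adjusted p numbered 6 as reported, 27 without a filter, 14 with a minimum of 10 in 3 or more libraries, 2 with a pseudocount of 0.1, 11 with equal library totals, 30 without the trend, 51 with a robust empirical Bayes step, 329 with library weights, 10 with voom, and 1 to 5 with 1 library left out. Genes past an unadjusted p, 4154 as reported, numbered 2282 to 4606 with 1 library left out. The core median ran from -0.23 to -0.09 and the cap median from -0.20 to -0.07 with 1 library left out. With equal library totals and with voom the cap median was -0.021 and -0.011 and the core median -0.042 and -0.038, where all genes stood at 0.11 and 0.10. Relative to all genes the cap then lay at -0.131 and -0.111 and the core at -0.152 and -0.138. A change of library scale could hardly move such offsets, so they are no separate check. Negative members numbered 37 and 32 of 55 in these fits. Of 430 values of 27 named members under alternatives, 420 kept their direction and 10 turned, none of them past the threshold. These were PSMB10 without control 3 (-0.04) and without morphant 1 (-0.17), psmb6 with equal library totals (0.034), voom (0.040) and without control 1 (0.012), psmb7 with equal library totals (0.000) and voom (0.009), psmb11 without morphant 3 (0.12), and psmb9a with a pseudocount of 0.1 (0.21) and without control 1 (0.10). With 1 library left out the value of PSMB10 ranged from -0.17 to 0.60, that of psmb6 from -0.21 to 0.012, that of psmb11 from -0.50 to 0.12 and that of psmb9a from -1.31 to 0.10. The cause of these turns was not tested.

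Deviations from the group means had an r of 0.104, -0.059 and 0.118 between same-numbered libraries over 15942 genes. Between differently numbered libraries r ran from -0.228 to 0.212. With 3 libraries per group this cannot decide whether the numbers pair them, and the labels do not say. With the replicate number as a block, 2 genes passed an adjusted p, and 9 proteasome members passed an unadjusted p, 8 lower and 1 higher, beside 6.63% of all genes lower and 9.68% higher. Values of psmb9a and psmb11 were 8 or less in every library and rest on few reads.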
